A study of Rattus norvegicus with 34 samples.

Results

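Aminoacyl-tRNA synthetases are the enzymes that load each transfer RNA (tRNA) with its amino acid. Their genes were followed in rat kidney cells, kidney and liver after exposure to monuron, a phenylurea herbicide. The members were chosen by symbol: 1 capital letter followed by ars and by 1, 2 or 3, and also Farsa, Farsb and Eprs1. This rule found 33 of the 14217 genes named on the array, with 51 of 20826 probe sets. By symbol, 19 of these genes were counted as cytosolic (ending in 1, Farsa and Farsb) and 13 as mitochondrial (ending in 2). Tars3, a further threonyl-tRNA synthetase gene, has neither ending and was kept apart for that reason only. Lars2 and Pars2 were not analysed here, nor was Mars2, whose probe set carries a pair of gene entries.

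The cytosolic enzymes charge tRNAs for the bulk of protein synthesis, and the mitochondrial enzymes, also encoded in the nucleus, charge tRNAs for the few proteins made inside mitochondria. Most amino acids have 1 gene for each place, whereas Gars1 and Kars1 each encode both forms. Part of the cytosolic enzymes sit in a multi-synthetase complex with the scaffold proteins Aimp1, Aimp2 and Eef1e1. When charged tRNAs run short, the kinase Gcn2 favours translation of the transcription factor ATF4, and many cytosolic synthetase genes are known targets of ATF4.

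The cells were NRK-52E, a line of rat kidney epithelium, and carried monuron or 0.1% DMSO alone for 6, 24 or 72 h, with 3 arrays for each agent and time. Kidney and liver came from male Wistar-derived rats aged 7 to 9 weeks with a weight of 190 to 240 g. Monuron rats were dosed with 40 mg/kg on day 1 and 400 mg/kg on days 2 and 3 in corn oil, control rats with corn oil (5 ml/kg), and each organ has 4 arrays for monuron and 4 for control. The sample labels name monuron for the cells but the protocol names chlorothalonil at 1.1 µM, so the agent on the cells is in doubt and the word monuron follows the labels. The labels give 72 h for the organs where the protocol counts 72 h from the last dose, and they leave unstated whether kidney and liver came from the same rats. The labels call the cell replicates biological and 3 studies are mentioned at each time, but separate cultures are not described. The p-values therefore measure the spread between these arrays.

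All values are deposited log2 expression values, 1 per probe set, and a gene is represented by its probe set with the highest mean. Differences are monuron minus control on the log2 scale, with the standard error (SE) from limma, and a gene is called where limma's p-value, adjusted by Benjamini-Hochberg over all genes tested, is below 0.05. In treatment comparisons, rose and fell mean called higher or lower than the controls of the same time or organ, not changed over time. Genes above the median of the array on enough arrays were tested: 31 members in the cells (19 cytosolic, 11 mitochondrial and Tars3) and 32 in each organ (19, 12 and Tars3). Ears2 was not tested anywhere and Sars2 not in the cells. Within groups, Pearson's r between arrays across probe sets was 0.987 to 0.999. The lowest value was among the DMSO 72 h arrays, where replicate 3 stood apart: for 17 of the 19 cytosolic members it lay above both other DMSO 72 h arrays and below all monuron 72 h arrays. Counts that move by over 1.5 times without it are given both ways. In the kidney all 6 proximal tubule markers, and in the liver all 6 hepatocyte markers, were above the array median on every array, whereas in NRK-52E cells 0 of 6 proximal tubule markers were above it in all arrays of any group. Lrp2, Cubn, Slc34a1, Slc5a2 and Slc22a6 were below it on every cell array. Aqp1 was above it on 2 of 3 DMSO 72 h arrays (mean 5.98, highest 7.84) and below it on all arrays of the other groups. RNA from fewer cells of a type and less RNA per cell cannot be told apart in bulk samples.

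The start regions of the synthetase genes are shown first, because the cytosolic members moved together at 72 h. RefSeq promoter windows of build GRCr8 (250 bases before to 50 after each start) matched 31 of the 33 members, and Gars1 and Rars1 had none. The C/EBP-ATF element TGATGNAA, the composite site known to be bound by ATF4 with a C/EBP partner, was searched on both strands. It was found in 7 of 17 cytosolic windows and in 0 of 13 mitochondrial windows, against 3.98% of all 33469 windows. For each of these 7 genes 1 element is given below with its surroundings, on the strand that reads TGATGNAA, with the element in capitals.
Aars1: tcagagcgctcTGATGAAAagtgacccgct
Cars1: tttccagaatcTGATGCAAccgcggcgccg
Iars1: gcgtctggaggTGATGCAAtactgacagtg
Mars1: ggagcccacgcTGATGCAAccggaacgggc
Nars1: cctaggtgatcTGATGCAAcgcttcagtca
Tars1: agctaaccagcTGATGCAAcgggacgccag
Yars1: acgagctcagcTGATGCAAcctg

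They lie at chr19:55908480-55908509 (Aars1, minus strand), chr1:208225334-208225363 (Cars1, plus), chr17:15193658-15193687 (Iars1, plus), chr7:65023752-65023781 (Mars1, plus), chr18:60275778-60275807 (Nars1, minus), chr2:62114811-62114840 (Tars1, plus) and chr5:146820190-146820212 (Yars1, plus). In Nars1 and Yars1 the element reads along the strand of the gene, and in the other 5 genes against it. Counted along the strand of the gene, the first base covered by the element lies at -27 from the start in Tars1 and -24 in Iars1. This base lies at -17 in Mars1 and -14 in Nars1. In Aars1, Cars1 and Yars1 this base lies at 9, 17 and 38, where negative positions are before the start. Where the element reads against the gene, this base is the last letter of TGATGNAA. The other searched motifs, on both strands, were the E-box CACGTG, in 5 of 17 cytosolic and 1 of 13 mitochondrial windows against 6.42% of all windows, and the NRF-1 core CGCATGCG, in 0 of 17 and 2 of 13 windows (Vars2 and Wars2) against 1.66%. No match of one motif overlapped a match of another. A match describes letters only, and no match says only that these letters are absent from the window.

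For the 2 cytosolic members with the smallest adjusted p at 72 h, Tars1 and Mars1, and for Wars1, which had the largest difference there, the 150 bases before the start are printed on the strand of the gene. Capitals mark the C/EBP-ATF element, which reads here as its reverse complement TTNCATCA, and the Wars1 stretch holds none.
Tars1, chr2:62114803-62114952, minus strand: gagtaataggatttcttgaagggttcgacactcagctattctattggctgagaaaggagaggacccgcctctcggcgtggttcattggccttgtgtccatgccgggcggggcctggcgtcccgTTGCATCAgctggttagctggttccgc
Mars1, chr7:65023754-65023903, minus strand: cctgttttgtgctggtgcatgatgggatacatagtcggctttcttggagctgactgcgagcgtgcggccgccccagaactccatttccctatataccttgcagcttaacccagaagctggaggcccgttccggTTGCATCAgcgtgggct
Wars1, chr6:133571646-133571795, minus strand: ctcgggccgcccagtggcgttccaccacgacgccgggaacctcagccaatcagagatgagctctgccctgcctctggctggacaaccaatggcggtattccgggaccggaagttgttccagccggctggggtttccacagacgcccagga

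Hars1 and Hars2, the cytosolic and mitochondrial histidyl-tRNA synthetase genes, stand head to head, and the 143 bases between their starts are shared by both promoters. They are shown because both genes were higher at 72 h, and none of the 3 motifs was found in either window.
Hars1-Hars2, chr18:28672713-28672855, plus strand, from Hars1 to Hars2: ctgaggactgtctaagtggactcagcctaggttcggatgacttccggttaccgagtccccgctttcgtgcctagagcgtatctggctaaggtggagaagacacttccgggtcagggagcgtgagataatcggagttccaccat

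At 6 h, the comparison asked which synthetase genes differed early between monuron and DMSO. Cars1, the cytosolic cysteinyl-tRNA synthetase, Aars1, the cytosolic alanyl enzyme, and Nars2, the mitochondrial asparaginyl enzyme, rose, and no member fell. These were 2 of 19 cytosolic and 1 of 11 mitochondrial members, where 3.3% of all 9042 genes tested were called higher and 3.02% lower. The median difference was 0.39 over the cytosolic and 0.18 over the mitochondrial members, against -0.02 over all genes.

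Cars1 stood at 9.79, 10.42 and 10.59 with monuron and at 8.44, 8.98 and 8.99 with DMSO. All monuron arrays were above all DMSO arrays, and the difference was 1.46 (SE 0.27, n = 3 against 3, limma adjusted p = 0.00669). Its mitochondrial partner Cars2 stood at 5.40, 4.97 and 5.05 against 5.09, 5.10 and 4.65, and these groups overlapped. Aars1 was at 12.21, 12.23 and 12.13 against 11.45, 11.43 and 11.57, a difference of 0.71 (SE 0.20, limma adjusted p = 0.0449), with no overlap. Aars2, the mitochondrial alanyl enzyme, was at 6.06, 6.09 and 6.10 against 6.01, 6.35 and 6.37, with overlap. Nars2 was at 6.72, 7.04 and 7.11 against 5.39, 5.77 and 6.09, a difference of 1.20 (SE 0.30, limma adjusted p = 0.0259), again with no overlap. Nars1, its cytosolic partner, was at 12.97, 13.09 and 12.98 against 12.55, 12.58 and 12.58. Its groups did not overlap either, and its difference of 0.45 (SE 0.25) did not pass (limma adjusted p = 0.295). Groups without overlap were found for 13 cytosolic members with monuron above DMSO, for 2 with monuron below, and for 2 of 11 mitochondrial members, where 38.1% of all genes had no overlap in either direction.

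The Cars1 call held when each array of the fit was left out in turn. All cell groups share 1 estimate of the spread, so an array of another time can move a call. Without DMSO 72 h replicate 3, 11 cytosolic members were called higher at 6 h, where 6.68% of all genes were, and the mitochondrial count stayed at 1. Mars1, the methionyl enzyme, then had an adjusted p of 7.53e-05 for the same difference of 0.66, and Gars1, the glycyl enzyme, of 0.0114 for 0.40. Without any 1 of the 6 arrays at 6 h, of the 6 at 24 h, or of monuron 72 h replicates 1 and 2, the cytosolic count was 1, Aars1 being lost. The Nars2 call was lost without monuron replicate 2 or 3 or DMSO replicate 1 or 2 of 6 h, with adjusted p of 0.11, 0.103, 0.137 and 0.0642. With the replicate numbers as a block, a pairing only inferred from correlations at 6 h and 72 h, 4 cytosolic members were called, Iars1 (isoleucyl) and Mars1 in addition.

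At 24 h, the same comparison gave 3 cytosolic calls, all higher, and 0 mitochondrial calls with limma at an adjusted p below 0.05, while 3 of 11 mitochondrial members had an unadjusted p below 0.05 (Wars2, Rars2 and Tars2), as did 2651 of all 9042 genes. Over all genes 6.43% were called higher and 7.14% lower. The cytosolic genes called were Mars1, Sars1 (the seryl enzyme) and Cars1. Cytosolic and mitochondrial medians were 0.45 and 0.25, where the median of all genes was -0.00.

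Mars1 was at 12.28, 12.19 and 12.38 with monuron and at 11.42, 11.32 and 11.44 with DMSO, a difference of 0.89 (SE 0.20, limma adjusted p = 0.0101). Sars1 was at 12.04, 11.99 and 11.95 against 11.07, 11.08 and 11.16, with a difference of 0.89 (SE 0.24, limma adjusted p = 0.0216). Cars1 was at 10.05, 10.02 and 10.16 against 9.31, 9.23 and 9.04, with a difference of 0.88 (SE 0.27, limma adjusted p = 0.0423). For each of the 3 genes the lowest monuron array was above the highest DMSO array. Cars2 was at 4.93, 4.52 and 5.01 against 4.54, 4.61 and 4.95, so the partner of Cars1 again overlapped. Groups without overlap were found for 15 cytosolic members with monuron above, for 1 (Farsa, the alpha subunit of the phenylalanyl enzyme) with monuron below, and for 4 of 11 mitochondrial members, all with monuron above. Over all genes this share was 49.4%. Farsa stood at 8.28, 8.26 and 8.29 against 8.53, 8.47 and 8.41, a difference of -0.20 that was not called (limma adjusted p = 0.145).

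The Mars1 call held when each array was left out. Without DMSO 72 h replicate 3, 12 cytosolic and 2 mitochondrial members were called higher, where 11.5% of all genes were. Without any 1 of monuron 24 h replicates 1, 2 or 3 or DMSO 24 h replicates 1 or 2, only Mars1 remained called, so the cytosolic count was 1. Sars1 then had adjusted p of 0.0689, 0.0664, 0.0555, 0.0766 and 0.0667, and Cars1 was between 0.0928 and 0.116. Cars1 was also lost without DMSO 24 h replicate 3, monuron 6 h replicate 2, DMSO 6 h replicates 2 or 3 or monuron 72 h replicate 2 (highest adjusted p 0.113). The count was 6 cytosolic members without DMSO 72 h replicate 1.

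The mean level of each compartment shows the course over time on every array.

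**Figure D1:**
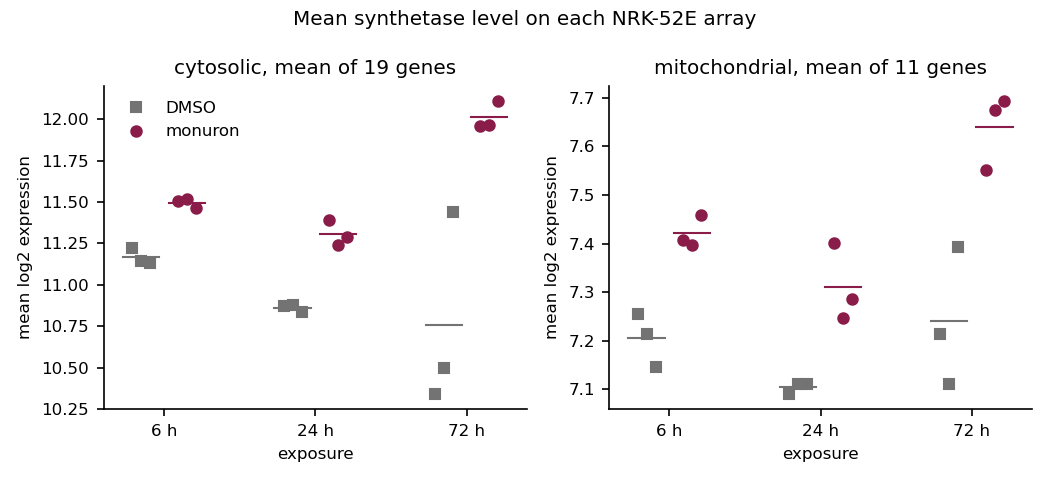
Mean log2 expression of the 19 cytosolic (left) and 11 mitochondrial (right) synthetase genes tested, for each NRK-52E array at 6, 24 and 72 h; grey squares are DMSO arrays, dark red circles are monuron arrays and lines are group means. The 3 cytosolic monuron means at 72 h lie between 11.96 and 12.11, and DMSO 72 h replicate 3, at 11.44, lies well above the other DMSO arrays of that time.

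Over the 19 cytosolic genes the mean on DMSO arrays was 11.17 at 6 h (SD 0.05, n = 3) and 10.86 at 24 h (SD 0.02), and it was 10.34, 10.50 and 11.44 on the DMSO arrays of 72 h. On monuron arrays it was 11.50 at 6 h (SD 0.03), 11.31 at 24 h (SD 0.08) and 12.01 at 72 h (SD 0.09). Replicates 1 and 2 of DMSO at 72 h thus lay 0.52 and 0.36 below the mean of DMSO at 24 h, while replicate 3 lay 0.58 above it. For the mitochondrial genes the DMSO means were 7.20, 7.10 and 7.24 and the monuron means 7.42, 7.31 and 7.64 at 6, 24 and 72 h. In both compartments every monuron mean lay above every DMSO mean of the same time. The mitochondrial gap at 72 h was narrow, with 7.39 on DMSO 72 h replicate 3 and 7.55 on the lowest monuron array.

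At 72 h, 18 of the 19 cytosolic synthetase genes were called higher with monuron than with DMSO, by 0.30 to 2.09, and none lower. The exception was Farsa. Of the 11 mitochondrial genes, 4 rose (Rars2, Tars2, Hars2 and Fars2) and none fell. At this time 30.7% of all genes were called higher and 30.9% lower. The median was 1.44 over cytosolic and 0.20 over mitochondrial genes, against 0.01 over all genes. The compartments also differed in signal, with a mean level on monuron 72 h arrays of 12.01 for cytosolic and 7.64 for mitochondrial genes. The part of signal level in this contrast was not tested.

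**Figure D2:**
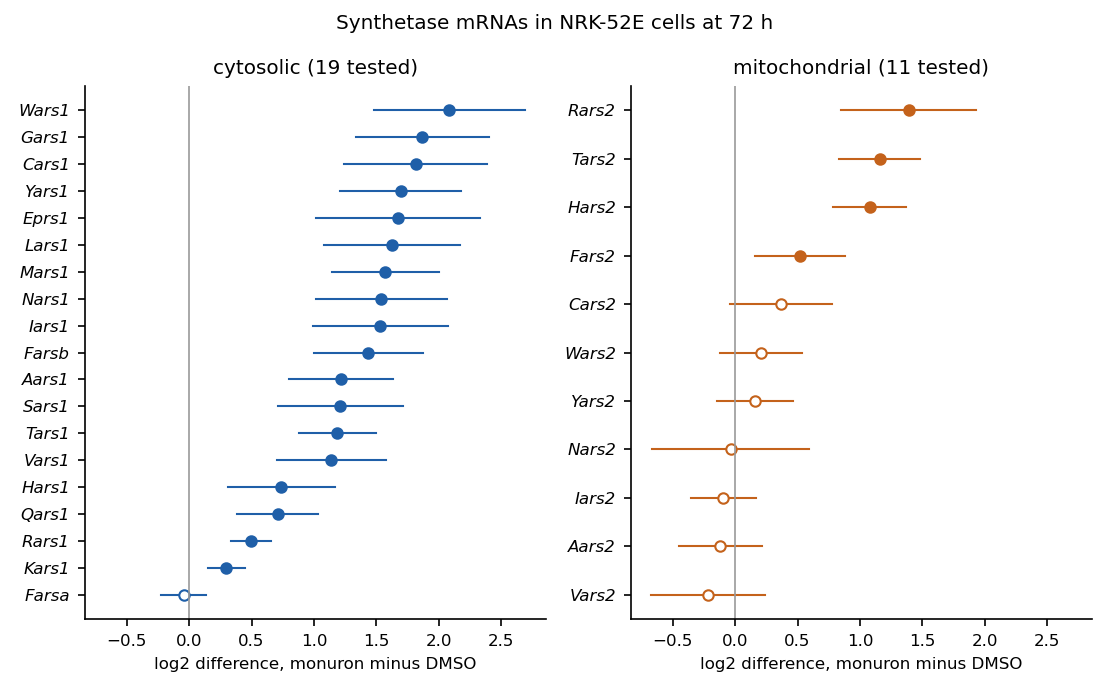
Log2 difference between monuron and DMSO at 72 h for each synthetase gene tested (points), with the 95% confidence interval from limma (lines), for cytosolic genes (left) and mitochondrial genes (right); filled points passed an adjusted p of 0.05 and the vertical line marks no difference. Farsa is the only open point among the cytosolic genes, and 4 of the 11 mitochondrial points are filled.

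Among the cytosolic genes with the smallest adjusted p, Tars1, the threonyl enzyme, was at 11.63, 11.65 and 11.68 with monuron and at 10.11, 10.33 and 10.95 with DMSO (difference 1.19, SE 0.14, limma adjusted p = 5.37e-06). Mars1 was at 13.23, 13.11 and 13.15 against 11.06, 11.37 and 12.34 (difference 1.57, SE 0.20, limma adjusted p = 8.16e-06). In both genes the DMSO arrays spread widely, with replicate 3 the highest, and still lay below every monuron array. Gars1 was at 13.21, 13.26 and 13.35 against 10.69, 11.17 and 12.34, a difference of 1.87 (SE 0.25, limma adjusted p = 1.27e-05). Yars1, the tyrosyl enzyme, was at 12.06, 12.06 and 12.25 against 9.93, 10.07 and 11.28, a difference of 1.70 (SE 0.23, limma adjusted p = 1.31e-05). The same order, monuron above replicate 3 of DMSO and replicate 3 above the other DMSO arrays, held for both.

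The largest difference was that of Wars1, the tryptophanyl enzyme, which stood at 12.28, 12.26 and 12.35 with monuron and at 9.52, 9.81 and 11.31 with DMSO (difference 2.09, SE 0.29). Wars2, its mitochondrial partner, was at 5.44, 5.62 and 5.73 against 5.59, 5.18 and 5.41, with overlapping groups and a difference of 0.20 (95% interval -0.12 to 0.53). Cars1 was at 10.72, 10.58 and 10.88 against 8.49, 8.50 and 9.76 (difference 1.82, SE 0.27). Cars2 was at 5.11, 4.82 and 5.19 against 4.68, 4.80 and 4.52, all monuron arrays above all DMSO arrays, and its difference of 0.37 did not pass (limma adjusted p = 0.107).

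The cytosolic phenylalanyl enzyme is built from an alpha subunit (Farsa) and a beta subunit (Farsb), and their genes were measured apart. Farsb was at 10.30, 10.30 and 10.29 with monuron and at 8.50, 8.45 and 9.62 with DMSO, a difference of 1.44 (SE 0.21). Farsa was at 8.39, 8.42 and 8.37 against 8.49, 8.46 and 8.37, with overlapping groups and a difference of -0.05 (95% interval -0.23 to 0.14, limma adjusted p = 0.666). DMSO replicate 3 was the lowest of its group for Farsa. A second, dimmer Farsb probe set gave 0.03 (SE 0.20, limma adjusted p = 0.915), so the Farsb difference rests on 1 of its 2 probe sets.

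The counts by role that follow stand beside 30.7% of all genes called higher and a median of 0.01 over all genes, and differences between the subgroups were not tested. All 7 cytosolic members of the multi-synthetase complex that were measured rose, with a median of 1.53. They were Eprs1 (glutamyl-prolyl, 1.68), Lars1 (leucyl, 1.62), Mars1, Iars1 (1.53), Qars1 (glutaminyl, 0.71), Rars1 (arginyl, 0.49) and Kars1 (lysyl, 0.30). Outside the complex 11 of 12 rose, with a median of 1.33. Synthetases fall into class I and class II by the fold of their catalytic domain. Of the cytosolic genes, 10 of 10 in class I rose (median 1.60) and 8 of 9 in class II (median 1.21). Of the mitochondrial genes, 1 of 6 in class I and 3 of 5 in class II rose (medians 0.18 and 0.52). The 7 cytosolic genes with a C/EBP-ATF element in the window all rose, with differences from 1.19 to 1.82 and a median of 1.54, and of the 10 windows without it 9 belonged to genes that rose, with a range from -0.05 to 2.09 and a median of 1.18.

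Among the mitochondrial genes that rose, Hars2 was at 9.29, 9.26 and 9.50 with monuron and at 8.20, 8.13 and 8.49 with DMSO (difference 1.08, SE 0.14, limma adjusted p = 8.99e-06). Tars2, the mitochondrial threonyl enzyme, was at 9.54, 9.84 and 9.90 against 8.36, 8.46 and 8.97 (difference 1.16, SE 0.15, limma adjusted p = 1.07e-05). Neither pair of groups overlapped. Rars2, the arginyl enzyme, was at 8.96, 8.85 and 8.93 against 7.18, 7.07 and 8.31, a difference of 1.39 (SE 0.25, limma adjusted p = 0.000214), with no overlap. Fars2, the phenylalanyl enzyme, was at 8.60, 8.69 and 8.94 against 7.95, 8.03 and 8.69, so that DMSO replicate 3 lay within the monuron range. Its difference was 0.52 (SE 0.17, limma adjusted p = 0.0152). The other 7 mitochondrial genes (Cars2, Wars2, Yars2, Nars2, Iars2, Aars2 and Vars2) had differences from -0.22 to 0.37 and were not called. Groups without overlap were found for 18 cytosolic members and for 4 mitochondrial ones (Hars2, Tars2, Rars2 and Cars2), all with monuron above, and for 57.9% of all genes in either direction.

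Partners for the same amino acid were set side by side, with no test of the difference between them. In 9 of 12 pairs the cytosolic gene had the larger difference at 72 h, in 7 pairs only the cytosolic gene was called, in 4 both were, and in 1 (Farsa with Fars2) only the mitochondrial gene was. Tars1 and Tars2 differed from DMSO by 1.19 and 1.16. Hars1 was at 11.22, 11.09 and 11.66 against 10.46, 10.33 and 10.96, a difference of 0.74 (SE 0.20), where its head-to-head neighbour Hars2 had 1.08. Rars1, at 11.96, 11.93 and 12.12 against 11.59, 11.44 and 11.50, had 0.49 (SE 0.08), where Rars2 had 1.39.

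**Figure D3:**
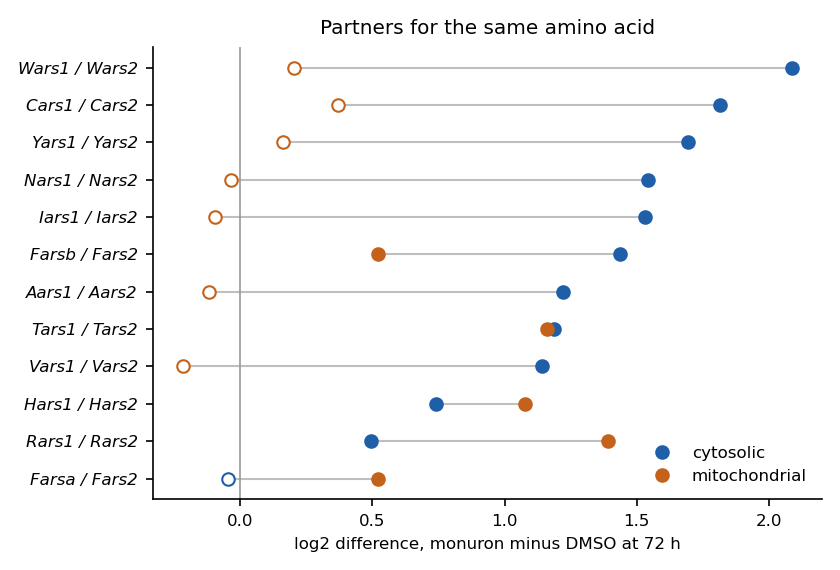
Log2 difference between monuron and DMSO at 72 h for the 12 pairs of cytosolic (blue) and mitochondrial (orange) synthetase genes of the same amino acid, Fars2 being set against both cytosolic subunits; filled points passed an adjusted p of 0.05 and grey lines join partners. The orange point lies to the right of the blue one for Hars1 and Hars2, Rars1 and Rars2, and Farsa and Fars2.

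All 18 cytosolic calls at 72 h held when each array was left out. Leaving out DMSO 72 h replicate 3 gave again 18 cytosolic and 4 mitochondrial calls, where 34.1% of all genes were called higher, and the medians were 1.82 and 0.30. Wars1 then differed by 2.63 (SE 0.10), Gars1 by 2.34 (SE 0.10), Eprs1 by 2.24 (SE 0.15), Rars2 by 1.79 (SE 0.18) and Fars2 by 0.75 (SE 0.14). The Fars2 call was lost without monuron 72 h replicate 3 (limma adjusted p = 0.0714), DMSO 72 h replicate 1 (0.0786) or the second DMSO 72 h replicate (0.0695). The Kars1 call was lost with the mean of its probe sets (0.06, limma adjusted p = 0.602), 1 of which was too dim to be tested on its own. In the same arrays Cd68, a macrophage marker, was at 5.61 with monuron (SD 0.57) and 3.31 with DMSO (SD 0.49). It was the 1 of 5 immune markers above the array median there, Ptprc, Cd3e, Itgam and Lyz2 being below it on every array, and the summed level of the 5 was 5.90 to 6.58 against 5.04 to 5.27. The stromal marker Col1a1 was at 6.42 (SD 0.18) against 7.55 (SD 0.57), the proximal tubule marker Aqp1 at 2.10 (SD 0.02) against 5.98 (SD 2.53). Their part in the synthetase differences was not tested.

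The same fit tested for a change over time in the gap between the monuron and DMSO arrays. From 24 to 72 h the gap grew for 11 of 19 cytosolic genes and for 2 of 11 mitochondrial genes (Hars2 and Tars2), and it shrank for none, where 18.3% of all genes were called in this direction and 19.6% in the other. The medians were 0.86 and 0.07 against 0.00 over all genes. The growth was 1.42 for Wars1 (SE 0.41, limma adjusted p = 0.0119), 1.34 for Gars1 (SE 0.36, limma adjusted p = 0.00813), 1.25 for Yars1 (SE 0.32, limma adjusted p = 0.00704) and 0.98 for Tars1 (SE 0.21, limma adjusted p = 0.00169). Mars1, Sars1 and Cars1, which were already called at 24 h, were not among the 11. Without DMSO 72 h replicate 3 the count was 18 of 19 cytosolic genes, all but Farsa, where 25.7% of all genes were called higher, and 3 mitochondrial genes. It was 6 without DMSO 72 h replicate 2, monuron 72 h replicate 3, monuron 24 h replicate 2 or DMSO 24 h replicate 2. The count was 7 when DMSO 72 h replicate 1 was left out, and likewise for monuron 24 h replicate 3 or DMSO 24 h replicate 1 or 3.

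From 6 to 24 h the gap changed for 0 of 19 cytosolic and 0 of 11 mitochondrial genes with limma, with 0 and 1 at an unadjusted p below 0.05 (1693 of all 9042 genes), where 1.22% of all genes were called in either direction. In the fit lacking DMSO 72 h replicate 3, 2 cytosolic genes were called, where 6.51% of all genes were.

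The DMSO cells also changed with time in culture. From 6 to 24 h, 7 of 19 cytosolic genes and 1 of 11 mitochondrial genes fell and none rose, where 28.3% of all genes fell and 24.8% rose. Vars1, the valyl enzyme, was at 10.38, 10.29 and 10.11 at 6 h and at 9.04, 9.07 and 9.05 at 24 h, so it fell by 1.21 (SE 0.21, limma adjusted p = 0.000141). Yars2, the mitochondrial tyrosyl enzyme, was at 10.20, 10.05 and 9.84 and then at 9.07, 9.03 and 8.99, and fell by 1.00 (SE 0.14, limma adjusted p = 2.73e-05). Hars1 fell by 0.79, Wars1 by 0.79, Farsa by 0.53, Tars1 by 0.39, Rars1 by 0.33 and Kars1 by 0.30. Groups without overlap were found for 16 cytosolic genes, 14 of them lower at 24 h, and for 4 mitochondrial genes, where 67.8% of all genes had none. Leaving out DMSO 72 h replicate 3 gave 12 cytosolic falls, where 31.2% of all genes fell, and a rise of Rars2 by 0.39 (limma adjusted p = 0.0479), where 27.7% rose. The mitochondrial falls were 2 without DMSO 6 h replicate 1. The DMSO 24 h arrays also enter the next comparison.

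From 24 to 72 h, 0 of 19 cytosolic genes changed in DMSO with limma, 2 having an unadjusted p below 0.05 (3588 of all 9042 genes), where 11.6% of all genes rose and 16.4% fell. Groups without overlap were found for 1 cytosolic gene and 3 mitochondrial genes, where 36.9% of all genes had none. When DMSO 72 h replicate 3 was left out, 13 cytosolic genes fell, with a median of -0.53 over all 19, where 23.3% of all genes fell. Gars1 then fell by 0.92 (SE 0.10), Nars1 by 0.80 (SE 0.08) and Aars1 by 0.66 (SE 0.08), whereas Wars1 (-0.01) and Sars1 (-0.02) were not called. Lacking DMSO 72 h replicate 1 or 2, 1 cytosolic gene rose, and without monuron 72 h replicate 1 or 3, 1 fell. Among mitochondrial genes Nars2 rose by 1.40 (SE 0.30, limma adjusted p = 0.00236), from 5.92, 5.65 and 6.29 at 24 h to 7.94, 6.95 and 7.18 at 72 h. Its level with monuron at 72 h was 7.08, 7.82 and 7.06, so all 3 monuron arrays lay inside the DMSO range. Rars2 also fell in DMSO, by 0.74 (SE 0.18), in the fit lacking DMSO 72 h replicate 3.

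Other genes of tRNA charging or processing were followed beside the synthetases. Of 13 tested in the cells, 0 rose and 2 fell at 6 h, 4 rose and 1 fell at 24 h, and 10 rose and 0 fell at 72 h. Over all genes 3.3% rose and 3.02% fell at 6 h, 6.43% and 7.14% at 24 h, and 30.7% and 30.9% at 72 h. The medians of the 13 were -0.17, 0.12 and 0.67, against -0.02, -0.00 and 0.01 over all genes. At 6 h Aimp2, a scaffold of the multi-synthetase complex, fell by 0.37 and Pus1, a pseudouridine synthase of tRNA, by 0.34. At 24 h Aimp2 fell by 0.35, while Prorsd1 (0.72), Pstk, a kinase acting on seryl-tRNA for selenocysteine (0.62), Mtfmt, the mitochondrial methionyl-tRNA formyltransferase (0.49), and Dtd1, a deacylase of D-aminoacyl-tRNA (0.49), rose. At 72 h the largest rise was that of Qrsl1, a subunit of the mitochondrial enzyme that makes glutaminyl-tRNA from glutamyl-tRNA. Its mean was 9.03 with monuron (SD 0.15, n = 3) and 7.33 with DMSO (SD 0.41), a difference of 1.71 (SE 0.20). The 3 scaffold genes Aimp1 (0.70), Eef1e1 (0.67) and Aimp2 (0.48) rose there too, as did Elac2 (0.85), Sepsecs (0.83), Pus1 (0.78), Prorsd1 (0.68), Pstk (0.54) and Aarsd1 (0.33). Gatc, Mtfmt and Dtd1 were not called.

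**Figure D4:**
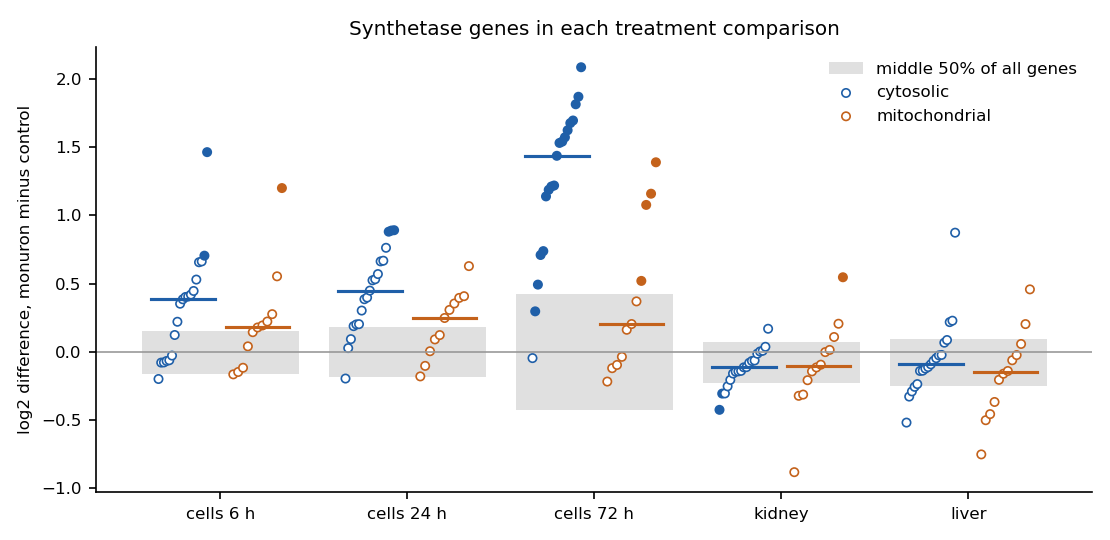
Log2 difference between monuron and control for each cytosolic (blue) and mitochondrial (orange) synthetase gene tested in the 5 treatment comparisons; filled points passed an adjusted p of 0.05, short lines are medians, and grey boxes span the middle 50% of all genes tested. The cytosolic median lies at 1.44 in cells at 72 h, and at -0.11 in kidney and -0.09 in liver.

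In the kidney of monuron rats, Fars2 rose and Gars1 and Sars1 fell, and no other member was called on the probe set used for it. These calls were 0 higher and 2 lower of 19 cytosolic genes and 1 higher and 0 lower of 12 mitochondrial genes, where 3.87% of all 9542 genes were called higher and 6.34% lower. The median was -0.11 over cytosolic and -0.10 over mitochondrial genes, against -0.08 over all genes. A different Eprs1 probe set, tested on its own, passed as higher in kidney and is given under Other observations.

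Fars2 was at 9.01, 8.99, 9.01 and 9.19 in monuron kidneys and at 8.49, 8.53, 8.62 and 8.38 in control kidneys. All monuron arrays lay above all control arrays, with a difference of 0.55 (SE 0.08, n = 4 against 4, limma adjusted p = 0.00588). Its cytosolic counterparts were not called. Farsa was at 7.49, 7.43, 7.48 and 7.45 against 7.59, 7.60, 7.61 and 7.60, every monuron array lower, with a difference of -0.14 (SE 0.08, limma adjusted p = 0.273), while Farsb was at 8.01, 8.07, 8.37 and 8.34 against 8.44, 8.53, 8.32 and 8.32. Gars1 was at 10.22, 10.51, 10.47 and 10.67 against 10.93, 10.91, 10.94 and 10.79, with no overlap, and fell by 0.42 (SE 0.09, limma adjusted p = 0.0226). Sars1 was at 9.64, 9.80, 9.70 and 9.85 against 10.06, 10.11, 10.07 and 9.96, with no overlap, and fell by 0.31 (SE 0.07, limma adjusted p = 0.0264). Sars2, the mitochondrial seryl enzyme, was at 2.52, 3.96, 3.15 and 4.11 against 4.29, 4.13, 4.49 and 4.35 and was not called (limma adjusted p = 0.111), with 2 monuron arrays below the array median. Groups without overlap were found for 5 cytosolic genes, all with monuron below, and for 3 mitochondrial genes, 1 above and 2 below, where 19.4% of all genes had none.

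The Fars2 call held when each array was left out. The Gars1 call was lost without kidney monuron replicate 3 (limma adjusted p = 0.0639) or kidney control replicate 3 (0.0745), and a second Gars1 probe set was not called and lay in the other direction, at 0.36 (SE 0.25). The Sars1 call was lost without kidney monuron replicate 1 (0.0623) or 3 (0.0815) or kidney control replicate 1 (0.0526), 2 (0.0611) or 3 (0.0813). Thus 0 cytosolic genes were called without kidney monuron replicate 3 or kidney control replicate 3, and 1 without kidney monuron replicate 1 or kidney control replicate 1 or 2. Of the other genes of tRNA charging or processing 2 of 15 fell in kidney, where 6.34% of all genes fell, and 0 rose. They were the scaffold genes Aimp1 (by 0.37) and Aimp2 (by 0.31). Beside these differences, 2 of 6 proximal tubule markers were called higher, and their summed level was 16.54 to 16.70 in monuron and 16.33 to 16.47 in control kidneys. The immune marker Ptprc was at 6.96 (SD 0.16) against 6.49 (SD 0.13), 1 of 2 immune markers tested was called higher, and the summed level of the 5 on the array was 12.81 to 13.26 against 13.04 to 13.23. The summed level of 6 hepatocyte markers was 13.05 to 13.92 in monuron and 14.17 to 14.49 in control kidneys, with 1 of 4 tested called lower and 0 higher. Its members went different ways: Cyp2e1, the brightest, was at 13.40 (SD 0.31) against 14.28 (SD 0.13), whereas Alb was at 10.11 (SD 1.36) against 7.68 (SD 1.21) and Ttr at 6.24 (SD 1.44) against 4.99 (SD 1.23). The part of these markers in the synthetase differences was not tested.

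**Figure D5:**
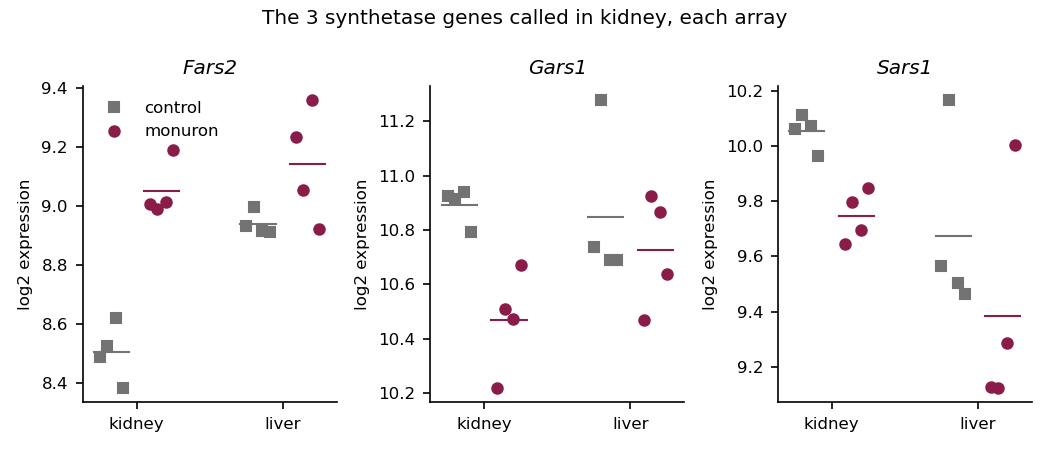
Log2 expression of Fars2, Gars1 and Sars1 on each array of kidney and liver; grey squares are control rats, dark red circles are monuron rats (4 arrays each) and lines are group means. In kidney the groups do not overlap for any of the 3 genes, and in liver they overlap for each.

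In the liver, 0 of 19 cytosolic and 0 of 12 mitochondrial genes were called with limma, where 1.1% of all 9361 genes were called higher and 2.02% lower, and 1 and 3 of them had an unadjusted p below 0.05, as did 2244 of all genes. The medians were -0.09 and -0.15 against -0.07 over all genes. The smallest adjusted p was that of Tars2, at 9.36, 9.44, 9.09 and 9.40 with monuron and at 9.90, 9.76, 9.58 and 9.88 in controls, a difference of -0.46 (SE 0.11, limma adjusted p = 0.0624) without overlap. It was called without liver control replicate 3 (-0.52, limma adjusted p = 0.0373). The groups of 2 mitochondrial and 0 cytosolic genes had no overlap, where 14.1% of all genes had none. The genes called in kidney overlapped in liver. Fars2 was at 9.23, 9.05, 9.36 and 8.92 against 8.93, 9.00, 8.91 and 8.91 (difference 0.20, SE 0.11, limma adjusted p = 0.288), Gars1 had a difference of -0.12 (SE 0.15) and Sars1 overlapped as well. Of 15 other genes of tRNA charging or processing 0 were called with limma, and 5 had an unadjusted p below 0.05, a share to be read beside the same 2244 genes.

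Whether the treatment difference itself differed between liver and kidney was tested in a joint fit, and 0 of 19 cytosolic and 0 of 12 mitochondrial genes were called with limma (2 and 3 at an unadjusted p below 0.05, and 1665 of all genes), where 2.68% of all 10114 genes were. Without liver control replicate 3, Hars1 (1.40, limma adjusted p = 0.0361) and Hars2 (0.79, limma adjusted p = 0.0312) were called, with the liver difference above the kidney difference. For Fars2 the liver difference was 0.34 below the kidney difference (limma adjusted p = 0.208), so the kidney rise is not shown to differ from the liver value.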

How the data were processed

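The 34 Affymetrix arrays hold 31099 probe sets, deposited as log2 values that the authors made with GCRMA, per the submitters' processing notes, whose version is not given in the sources used here. Control probe sets (57), those with several symbols (436) and those with none (9780) were left out. Each gene took the probe set with the highest mean, and genes were tested if they exceeded the array median on 3 arrays (cells) or 4 arrays (organs). limma 3.58.1 in R 4.3.3 (lmFit, eBayes with trend, two-sided) was fitted to 18 cell arrays jointly, to each organ, and to both organs for their difference. P-values were Benjamini-Hochberg adjusted over all genes tested, with a threshold of 0.05, and intervals are 95%. The scripts were tested on simulated data. No raw intensities were used, so the normalization was not redone. The number of arrays limits the precision.

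Values on every array are given for up to 4 members per compartment with the smallest adjusted p among those called, partners of the 3 largest changes, and members against the majority. Members and lists were chosen with earlier results of these data known. Same-numbered monuron and DMSO arrays had correlated deviations at 6 h (r = 0.491, 0.197 and 0.29) and 72 h (0.205, 0.167 and 0.317). They did not at 24 h (-0.116, -0.116 and 0.128) or in kidney and liver. Differently numbered pairs ranged from -0.43 to 0.301 at 6 h and from -0.328 to 0.275 at 72 h. Some thus exceeded same-numbered pairs, and a pairing by number was only inferred from these correlations. Alternatives were the filter, the mean of probe sets, centring, limiting values at the array median, no trend, the replicate block, fewer arrays, and leaving out each array. Some items withheld for evaluation are not reported here.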

Additional observations from a re-analysis of the deposited data

Results flagged for a closer look

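Among 128 groups of 4 organ arrays, 12 had an end array far from the other 3 by Dixon's 95% critical value, and chance alone passes about 1 in 20 groups. In kidney these were Aars2 at 5.24 on monuron replicate 3 (nearest array 5.89) and at 6.34 on control replicate 3 (6.05), Fars2 at 9.19 on monuron replicate 4 (9.01), Hars2 at 6.96 on control replicate 3 (7.33), Rars2 at 7.96 on monuron replicate 2 (8.24) and Vars1 at 7.33 on control replicate 3 (7.15). In liver they were Eprs1 at 12.42 on control replicate 1 (12.66), Gars1 at 11.28 on control replicate 2 (10.74), Sars1 at 10.16 on the same array (9.57), Nars1 at 11.01 on monuron replicate 4 (10.46), Nars2 at 4.42 on control replicate 4 (4.97) and Vars2 at 6.44 on monuron replicate 1 (7.04).

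The difference between monuron and DMSO was larger at 72 h than at 24 h for 13 members by limma's interaction term. The change was 0.82 for Aars1, 1.05 for Farsb, 1.34 for Gars1, 0.83 for Hars2, 0.96 for Iars1, 0.27 for Kars1, 1.02 for Nars1, 0.40 for Rars1, 0.98 for Tars1, 0.81 for Tars2, 0.84 for Vars1, 1.42 for Wars1 and 1.25 for Yars1.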

How the results depend on the processing

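Leaving out each array in turn kept the 18 cytosolic calls at 72 h, and the mitochondrial count there was 3 to 4. The other cytosolic counts ranged from 1 to 11 at 6 h, 1 to 12 at 24 h, 0 to 2 for the change from 6 to 24 h, 6 to 18 for that from 24 to 72 h, 5 to 12 and 0 to 13 for DMSO from 6 to 24 h and from 24 to 72 h, 0 to 2 in kidney, 0 in liver and 0 to 1 between organs. The mitochondrial counts ranged from 0 to 1 at 6 h, 0 to 2 at 24 h, 2 to 3 for the change from 24 to 72 h, 1 to 2 for both DMSO steps, and 0 to 1 in liver and between organs, with 1 in kidney. In the cells, wherever the cytosolic count moved, the highest came without DMSO 72 h replicate 3. At 6 h the cytosolic count was 1 without the filter, with the mean of probe sets, with centred arrays and without the trend, 11 with only the 6 arrays of that time and 12 without any 72 h array. At 24 h the last 2 settings gave 15 cytosolic genes each and 2 and 3 mitochondrial genes, and no trend gave 1 mitochondrial gene. Without the filter the change from 24 to 72 h held 7 cytosolic genes. For DMSO from 6 to 24 h the mitochondrial count was 2 without the filter, 4 with centred arrays and 2 without the trend, and from 24 to 72 h it was 2 with the mean of probe sets. In kidney the mean of probe sets left 1 cytosolic gene. With the replicate block the cytosolic counts were 4 at 6 h, 5 at 24 h and 0 in kidney. A pairing by number was only inferred, from correlations at 6 and 72 h. Leaving out both 72 h arrays of number 3, chosen after seeing the data, gave cytosolic counts of 11 at 6 h, 14 at 24 h, 4 and 17 for the changes between times, and 13 for each DMSO step, and mitochondrial counts of 2 at 24 h and 3 and 2 for the DMSO steps. No called value changed sign. Why the counts moved was not tested.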

Other observations

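Several genes had further probe sets, each tested on its own, an alternative chosen after seeing the data. At 72 h a second Wars1 probe set gave 3.45 and a second Gars1 probe set 2.22, both called higher. The second Farsb probe set, described above, was not called. Further probe sets of the other members are not counted here. These values thus do not show how many calls at 72 h rest only on the probe set used. In kidney an Eprs1 probe set gave 1.42 (limma adjusted p = 0.0163), where the one used for Eprs1 gave -0.01. In DMSO cells Tars3 fell by 0.42 from 6 to 24 h (limma adjusted p = 0.0151).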
